A study of Homo sapiens with 4 samples.

Results

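The regions described here are stretches of open chromatin found both in H1 cells given Activin A and in control H1 cells, and the comparison asks how their order by peak score and their peak widths differed between the 2 deposited lists. Overlapping peaks of the 2 lists were merged, and 22154 of the 77978 merged regions had a peak in both. They made up 88.2% (95% interval 87.8 to 88.6) of the 25112 control regions and 29.5% (29.2 to 29.9) of the 75020 Activin A regions. Over all 4 lists of the series, merging gave 87966 regions. Exactly 1 peak in each list was found in 20696 of the shared regions.

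H1 is an established human embryonic stem cell line, and open chromatin was mapped by ATAC-seq, an assay in which Tn5 transposase cuts accessible DNA and tags it for sequencing. The control cells were grown without feeder cells in N2B27 medium with basic fibroblast growth factor, in parallel with the treated cells, and no harvest time was given for them. The labels give all 4 samples, the control included, the same early mesendoderm status. The Activin A cells received the ligand at 25 ng/ml for 6 h in a B27 medium listed without N2 and without that growth factor, so ligand and medium changed together and cannot be told apart. Wnt3a cells and cells given both ligands, also at 25 ng/ml each for 6 h in the B27 medium, are used below as independent libraries. Each group had 1 library and no replicates, so no test between groups was possible and no p-value is given. Intervals cover counting error only.

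Activin A belongs to the TGF-beta ligands. It binds activin receptors, which phosphorylate SMAD2 and SMAD3, and these enter the nucleus with SMAD4 and bind DNA together with other factors such as FOXH1. In human embryonic stem cells moderate activin or NODAL signalling maintains pluripotency, while stronger signalling, with loss of other maintenance signals, drives cells towards mesendoderm. Peak scores in general grow with how far the signal of a region stands above background, and called widths with how far that signal extends. Both can also grow with read depth, which is unknown here. Both can therefore differ at a region that is open in both states. Gene positions and sequence on the genome build of these lists (hg19) were not used here, so regions are given by position and cytogenetic band and not assigned to genes, and marker genes of H1 cells were not checked.

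The score is the authors' own value, its definition is not given in the sources used here, and the depth of the libraries is unknown. Scores were therefore not compared directly between lists but ranked within the shared regions of each list, from 0 for the lowest to 100 for the highest, and the rank shift is the Activin A percentile minus the control percentile. The raw scores lay on different ranges. The median shared region scored 82.1 in control and 304.5 after Activin A, and the 90th percentile was 192.1 and 791 in the same order. Control scores were also packed together at the low end. From the 10th to the 25th percentile the control score grew 1.15-fold and the Activin A score 1.71-fold, so among weak control peaks a small score difference spans many percentile points. Between the 75th and 90th percentiles the 2 lists spread alike, 1.52-fold and 1.54-fold.

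The order of the shared regions was partly kept. The Spearman correlation of the 2 scores over the 22154 regions was 0.66, a description across regions of 1 library each. The median absolute shift was 13.8 percentile points, and the middle 50% of the regions lay between -14.5 and 13.2 points. In all, 8669 regions (39.1%, 38.5 to 39.8) moved by less than 10 points either way. A region is called risen here when it ranked at least 25 points higher after Activin A and fallen when it ranked at least 25 points lower. By that measure 3078 regions (13.9%, interval 13.44 to 14.36) had risen and 3044 (13.7%, 13.3 to 14.2) had fallen. At 50 points or more 646 had risen (2.92%, 2.70 to 3.15) and 382 had fallen (1.72%, 1.56 to 1.90).

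This near balance follows from ranking within the shared regions. When each region was ranked instead within all regions of its own list, the median shift was 19.2 points, 41.7% of the shared regions had risen and 1.75% had fallen. In that ranking the shared regions stood higher within the longer Activin A list than within the control list. Every shift below is therefore relative to the other shared regions and not an absolute change in accessibility.

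**Figure D1:**
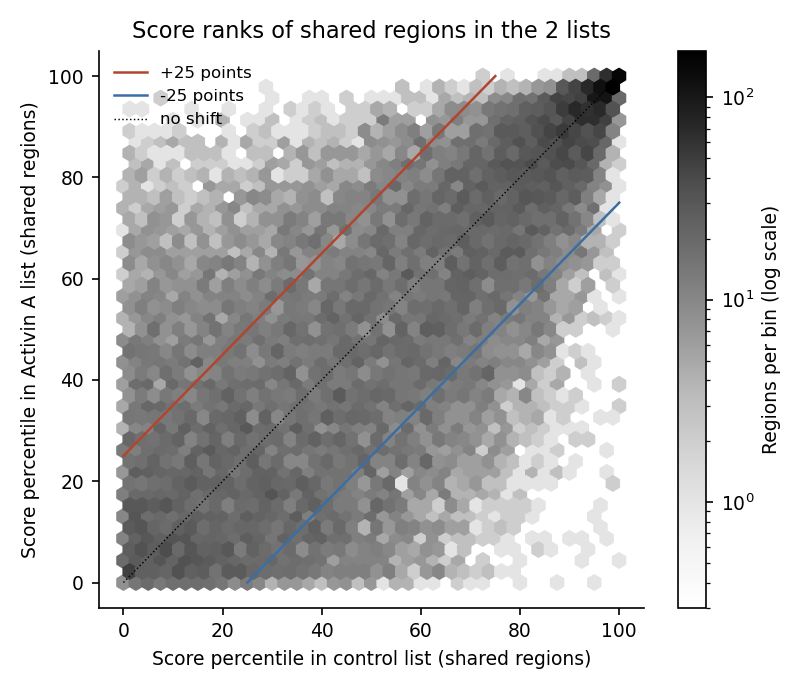
Score percentile of each of the 22154 shared regions in the control list (x axis) and in the Activin A list (y axis), with darker bins holding more regions on a log scale. Lines mark shifts of 25 points up and down; regions crowd the upper right corner, where the order was best kept, and scatter widely below it.

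The highest control decile kept more of its members than the lowest. Of the 2215 regions in the top 10% of control scores, 1394 (62.9%, 60.9 to 65.0) were in the top 10% after Activin A and 7 (0.316%, 0.127 to 0.650) were in the lowest 10%. Of the 2216 regions in the lowest 10% of control scores, 533 (24.1%, 22.3 to 25.9) stayed there and 5 (0.226%, 0.0733 to 0.526) reached the top 10%. Median shift by control decile went from 18.9 points in the lowest to -8.76 points in the seventh and -1.90 points in the highest. A region near either end of the scale can move in 1 direction only, so part of this gradient is set by the measure. In the lowest control decile, with scores of 50.0 to 53.6, 41.1% of regions had risen.

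**Figure D2:**
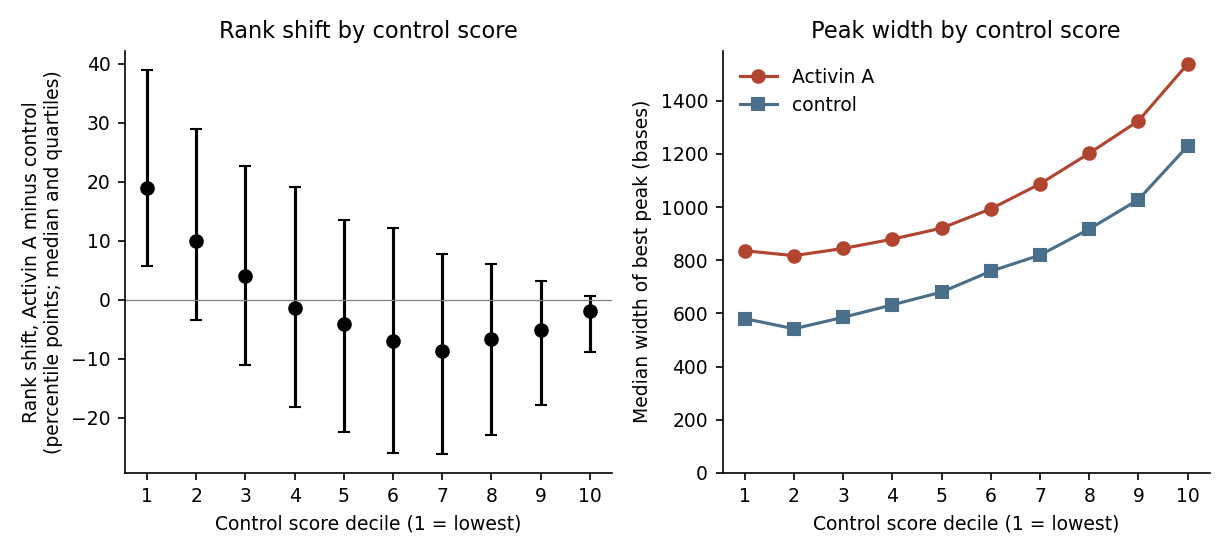
Left, median rank shift with quartiles in each decile of the shared regions by control score; right, median width in bases of the best-scoring peak in each list for the same deciles. Shifts run from a median of 18.9 points in the lowest decile to -1.90 in the highest, and the median Activin A width is the larger in every decile.

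The strongest regions sat at an apparent ceiling of the score. In the shared set 25 Activin A scores and 20 control scores were at or above 3100, and 19 regions reached it in both lists. The highest-scoring region after Activin A lay at 18517959 to 18520483 on chromosome 18, in the centromeric band 18q11.1, and scored 3111.64, with 3100 in control, 3153.47 after Wnt3a and 3100 with both. The region at 564296 to 570475 on chromosome 1 (1p36.33) scored 3100 in all 4 lists. Its width was 6180 bases after Activin A and 6176 in control. Also at 3100 in both lists was 121483971 to 121485567 in 1p11.2. The other two of the 5 named for Activin A were 91852625 to 91853315 in 1p22.2 and 156186070 to 156186804 in 1q22, with 3100 after Activin A and 1809.09 and 2514.24 in control. The control list tied at 3100 for its first 5, which were the 1p36.33 and 1p11.2 regions, 10529318 to 10531970 in 11p15.4, and 22020384 to 22021058 and 22022579 to 22024632 in 17p11.2. None of these named regions shifted by as much as 1 point, and ties leave their order undefined. The part of read alignment in these high scores was not tested, so they are not a measure of the most open chromatin.

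Activin A peaks were wider at most shared regions. The best-scoring peak of a region had a median width of 1033 bases (quartiles 774 to 1394) after Activin A and 709 bases (585 to 915) in control. It was wider after Activin A in 18209 regions (82.2%, 81.7 to 82.7), with a median ratio of 1.35 and a median difference of 262 bases. Peaks at least 1.5 times as wide after Activin A were found at 8613 regions (38.9%, 38.2 to 39.5), against 344 (1.55%, 1.39 to 1.72) at least 1.5 times as wide in control. The extension was similar at both edges, with medians of 112 bases at the lower-coordinate edge and 127 bases at the higher. In 11673 regions (52.7%, 52.0 to 53.4) the control peak lay wholly inside the Activin A peak, and in 1471 (6.64%, 6.32 to 6.98) the reverse held. Peak centres were a median of 110.5 bases apart.

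Width and score come from the same reads and are not separate evidence. Within a list they went together, with Spearman correlations over the shared regions of 0.71 after Activin A and 0.78 in control. The rank shift and the log2 width ratio correlated at 0.51. Risen regions had a median width of 1249 bases after Activin A and 593 in control, and 96.8% (96.1 to 97.4) of them were wider. Fallen regions had 800 and 767 bases, and 56.9% (55.1 to 58.6) were wider. Regions that did neither had 1049 and 737 bases, and 84.2% (83.6 to 84.8) were wider. Fallen regions as a group were thus about as wide in both lists. The Activin A list was also the longer, with 75585 peaks against 26223 in control. The depth of the libraries is unknown, and its part in the widths was not tested.

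Among regions with 1 peak in each list, the 5 with the largest width ratios were 6.55 to 7.14 times as wide after Activin A. At 7q32.1 a peak of 4895 bases on chromosome 7 (128469296 to 128474190) stood over a control peak of 686 bases (128472210 to 128472895). The scores there were 81.8 in control and 706 after Activin A, with 91.8 after Wnt3a and 474 under both, and the widths with Wnt3a and with both were 652 and 3115 bases. The wide form was thus found in the Activin A and combined lists and not in the control and Wnt3a lists. The first pair are also the longer lists, with 75585 and 58382 peaks against 26223 and 21078. At 4p16.3 (1002660 to 1006740 on chromosome 4) the width was 4081 bases after Activin A, 591 in control and 696 with both ligands, with no Wnt3a peak. Here the combined list had the narrow form. At 12q24.31 (125050640 to 125054575 on chromosome 12) the widths were 3936 bases after Activin A, 571 in control, 729 after Wnt3a and 1390 with both. The others were at 81785236 to 81787197 in 8q21.13 and 69139881 to 69142859 in 16q22.1, at 7.01 and 6.55 times the control width. The region in 8q21.13 kept its rank, with a shift of -2.75 points, although its peak was wider.

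Among regions with 1 peak in each list, the 5 with the smallest ratios were 0.364 to 0.426 times as wide after Activin A. The narrowest relative to control was at 46391512 to 46392130 on chromosome 16, in band 16q11.2, which is stained as variable heterochromatin, with 619 bases against 1699. At 6p22.1, 27262955 to 27263530 on chromosome 6 measured 576 bases against 1445 in control. The remaining ones were 40636736 to 40637096 in 15q15.1, 45837594 to 45837912 in 2p21 and 12324912 to 12325396 in 6p24.1. All 5 ranked lower after Activin A, by 21.1 points or more.

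The 10 regions with the largest rises ranked at 85.6 or above after Activin A and at 7.52 or below in control. These regions, from those with 1 peak in each list, were chosen by the shift itself and are given as a description. Their control scores ran from 50.65 to 52.65, just above the lowest score in the list, and their Activin A scores from 683 to 1039. Each of the 10 also had peaks with Wnt3a and with both ligands, and each had a wider peak after Activin A than in control. Of all shared regions, 60.5% had a Wnt3a peak, 93.3% a combined peak and 82.2% a wider peak after Activin A.

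The largest rise, of 91.3 points, was at 149106192 to 149109069 on chromosome X (Xq28). The scores there were 51.2 in control and 948 after Activin A, with 64.9 after Wnt3a and 233 under both. Next came 79196187 to 79197557 on chromosome 17 (17q25.3), a rise of 90.8 points, with scores of 50.9 in control and 882 after Activin A, with 196.9 after Wnt3a and 571 under both. At 29507535 to 29508894 on chromosome 1 (1p35.3) the scores were 50.65 in control and 753 after Activin A, with 106.5 after Wnt3a and 407 under both. These 3 differ in the Wnt3a list, where the first was weak and the second strong. At 71377250 to 71378488 on chromosome 6 (6q13) the scores were 52.5, 1009, 111.3 and 338 in the same order of libraries. At 220251674 to 220253879 on chromosome 2 (2q35) they were 52.65, 1039, 357.6 and 642, the highest Wnt3a and combined scores of the 10. The other 5 rises, of 83.2 to 86.9 points, were in 1p36.32 (2477005 to 2479012), 1q21.3 (153699768 to 153701474), 8q24.12 (121135471 to 121137946), 19p13.2 (7926540 to 7928733) and 21q22.11 (33244344 to 33247967).

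To put the 4 libraries on 1 scale, the 13016 regions with a peak in all 4 lists were ranked among themselves in each list. On that scale the 10 largest rises lay at 0.0999 to 8.59 in control and 75.9 to 92.0 after Activin A. They lay at 0.953 to 97.9 after Wnt3a and 20.8 to 90.1 with both ligands. Their medians were 1.36, 81.3, 52.9 and 74.1 in that order. The Wnt3a ranks therefore covered nearly the whole scale. The control value of 8.59 belongs to the 1p36.32 region, which stood at 1.70 in control among the shared regions. Merging over 4 lists can join neighbouring regions, and that value of 8.59 comes from another control peak. At 2q35 and 17q25.3 all 3 treated libraries ranked high, at 86.0 or above, and the control library alone ranked low. At 19p13.2 the Wnt3a library was as low as control, at 0.953 and 0.703, while the Activin A and combined libraries stood at 75.9 and 46.3. At 8q24.12 the Activin A and combined libraries were at 80.2 and 88.1 and Wnt3a at 28.5. At 21q22.11 Activin A stood alone, at 78.7, with 2.14 in control, 29.0 after Wnt3a and 20.8 with both.

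Of the 10 largest falls, 6 lay in centromeric or heterochromatic bands, against none of the 10 largest rises. Centromeric, heterochromatic and stalk bands held 163 of the 22154 shared regions. The largest falls must start from high control ranks and the largest rises from low ones, so these counts are not matched for control rank. The largest fall, a shift of -94.96 points, was the narrowed 16q11.2 region on chromosome 16, with scores of 378.7 in control and 71.0 after Activin A, with 89.1 after Wnt3a and 88.2 under both. On the 4-list scale it lay at 97.9 in control, 0.630 after Activin A, 37.3 with Wnt3a and 4.36 with both, so each treated rank was below that of control. The centromeric band 17p11.1 held 3 of the falls. In the first, at 22257092 to 22257845 on chromosome 17, the scores were 236.9 in control and 53.9 after Activin A, with 62.9 after Wnt3a and 183.5 under both. The other two in that band were 22250580 to 22251299 and 22257876 to 22258222. At 18511794 to 18512421 on chromosome 18 (18q11.1) the scores were 243.5, 80.3, 113.3 and 210.2 in the same order, and at 61083362 to 61083879 on chromosome 7 (7q11.1) 173.2 in control, 58.5 after Activin A and 63.4 after Wnt3a, with no peak in the combined list. Centromeric bands consist largely of satellite repeats, and the part of read alignment in these falls was not tested.

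Of the 93 shared regions in centromeric bands, 28 had fallen (30.1%, 21.03 to 40.5) and 5 had risen (5.38%, 1.77 to 12.1), against 13.7% and 13.9% of all shared regions. At 50 points or more 17 of the 93 had fallen. The median percentile of the 93 was 77.5 in control and 45.9 after Activin A. A high control rank leaves more room to fall and less to rise. In the control decile that holds this median, more regions had fallen and far fewer had risen than over all shared regions. The shares of the 93 were not compared at matched control rank, so their difference from all shared regions is a description only. Removing centromeric, heterochromatic and stalk bands left 21991 regions, of which 360 (1.64%, 1.47 to 1.81) had fallen by 50 points or more, against 382 with those bands kept.

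The other 4 of the 10, outside such bands, were at 135500500 to 135500999 in 10q26.3, 42401711 to 42402356 in 10q11.21, 51369117 to 51369789 in 15q21.2 and 66832951 to 66833661 in 9q13. The region in 10q26.3 scored 293.2 in control, 102.3 after Activin A and 225.2 with both ligands and had no Wnt3a peak. The region in 15q21.2 scored 200.3 in control and 97.2 after Activin A, with 125.9 after Wnt3a and 224.5 under both. On the 4-list scale those scores stood at 84.8, 1.75, 63.9 and 34.1, so Activin A was the lowest of the 4. The next outside such bands, named after the values were seen, included 151344663 to 151345252 in 1q21.3 (143.3 in control, 54.0 after Activin A, 90.2 with both, no Wnt3a peak). They also included 125399597 to 125400113 in 10q26.13 (136.0, 58.6 and 55.3 in the same order, again with no Wnt3a peak). Others among them were 121357499 to 121358201 and 121353181 to 121353718 in 1p11.2. Bands were left out by stain alone, and the distance of these falls from centromeric bands was not measured. Of the 10 largest falls outside centromeric, heterochromatic and stalk bands, 8 had a combined peak and 5 a Wnt3a peak, and 9 had the wider peak in control. Of all shared regions, 93.3% had a combined peak and 60.5% a Wnt3a peak, and 82.2% had the wider peak after Activin A. For the 8 of the 10 largest falls overall that were in all 4 lists, the median percentile was 90.7 in control and 1.35 after Activin A, with 51.7 after Wnt3a and 24.7 under both.

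The threshold of 25 points cuts a continuous scale. Just inside it lay 23456613 to 23457343 in 19p12, at 35.4 in control and 60.4 after Activin A, and just outside it 121453821 to 121454563 in 12q24.31, at 37.0 and 62.0. On the other side, 38968341 to 38968929 in 1p34.3 went from 36.0 to 10.98 and was counted as fallen, while 93623083 to 93623460 in 4q22.1 went from 90.9 to 65.9 and was not.

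The ranks of risen and fallen regions in the other treated libraries are given as a description. The groups were chosen for opposite ranks in control and Activin A, so a list correlated with both gives medians between them, and these medians lend no support to the shifts. Among the 13016 regions in all 4 lists, 1792 had risen (13.8%) and 1765 had fallen (13.6%) on the 4-list scale. Risen regions had median percentiles of 21.6 in control and 64.2 after Activin A, with 52.4 after Wnt3a and 55.4 under both ligands. Fallen regions had 63.7, 23.3, 39.2 and 35.5 in that order. At 50 points or more the 348 risen regions had 11.5, 73.9, 55.4 and 63.3, and the 248 fallen had 74.4, 12.9, 42.5 and 31.6. The groups overlapped in the Wnt3a list, where the quartiles were 30.4 and 71.6 for risen and 18.6 and 61.8 for fallen regions.

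**Figure D3:**
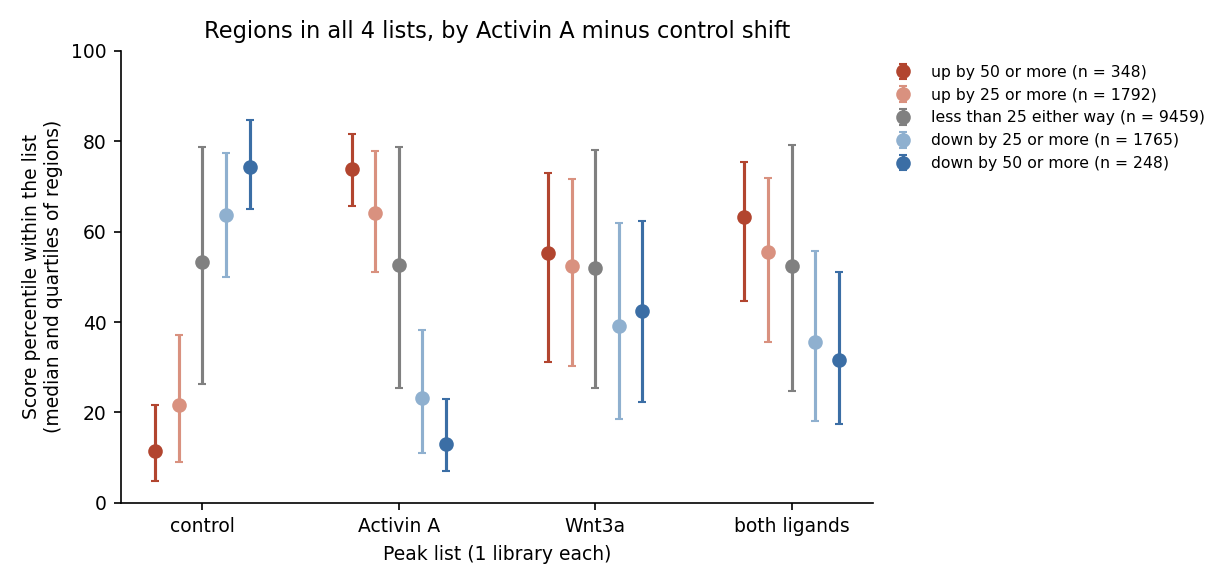
Median score percentile, with quartiles of regions, in each of the 4 lists for the 13016 regions found in all of them, grouped by their shift from control to Activin A. The control and Activin A values chose the groups; the Wnt3a and combined medians lie between them, which follows from choosing groups at opposite ends of 2 correlated lists.

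Within a range of Activin A ranks, regions still differed in the other treated libraries by their control rank. The groups were again chosen by control and Activin A ranks. Lists correlated with both give this order, so it lends no support to the shifts. Between the 50th and 75th Activin A percentiles, 823 risen regions had medians of 49.5 after Wnt3a and 53.0 with both ligands. The 2232 regions there that had neither risen nor fallen had 58.7 and 61.8, and the 198 fallen had 67.3 and 67.0. Their Activin A medians were not equal, at 62.3 for risen, 63.4 for the regions that did neither and 55.9 for fallen. A lower control rank thus went with lower Wnt3a and combined ranks. Within a range of control ranks, a lower Activin A rank likewise went with lower ranks in those lists. Between the 50th and 75th control percentiles, 799 fallen regions had medians of 37.5 and 33.7 in the Wnt3a and combined lists, and 171 risen regions had 76.9 and 81.3.

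The same ligand was also added on top of Wnt3a, in 1 medium, and that contrast shares no library with Activin A against control. Both contrasts go from a shorter list to a longer one. The Wnt3a list held 21078 peaks and the combined list 58382, against 26223 in control and 75585 after Activin A. Ligand and list length thus changed together in both contrasts and cannot be told apart. The shift from Wnt3a to both ligands had a Spearman correlation of 0.06 with the shift from control to Activin A over the 13016 regions. The regions share their position and base composition across libraries, and a correlation this weak is no finding. Over all 13016 regions 15.3% had risen and 15.2% had fallen from Wnt3a to both. Of the 348 regions that had risen by 50 points or more after Activin A, 27.6% (22.95 to 32.6) had risen from Wnt3a to both and 11.5% (8.34 to 15.3) had fallen. Of the 248 that had fallen by as much, 11.3% (7.63 to 15.9) had risen and 26.6% (21.2 to 32.6) had fallen. The median shift from Wnt3a to both was 5.57 points in the first group and -8.57 in the second, against -0.64 over all regions. For the wider groups at 25 points the medians were 0.93 and -4.46. Ranked within whole lists, the median from Wnt3a to both was 17.8 points over all 13016 regions, 24.4 in the 4777 then risen by 25 points and 18.8 in the 71 then fallen. The fallen group was thus 0.98 points above all regions in that ranking and not below them. At 50 points the medians were 26.4 over 1779 risen and 10.1 over 9 fallen regions. Without centromeric, heterochromatic and stalk bands the strongest fallen group, 230 regions, had a median of -7.27 points and 24.35% fallen.

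More of the risen than of the fallen regions had a peak in the other treated lists. A Wnt3a peak was found at 69.5% (67.8 to 71.1) of risen, 42.7% (40.9 to 44.5) of fallen and 60.5% of all shared regions, and a combined peak at 99.1% (98.7 to 99.4), 88.7% (87.6 to 89.8) and 93.3%. Risen regions had a median Activin A score of 404 and fallen regions 156.6. In control the medians were 59.0 and 97.9 in that order. Presence was not compared at matched score.

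Neighbouring regions had nearly unrelated shifts. Over 1518 pairs of adjacent shared regions less than 2 kb apart the Spearman correlation of their shifts was 0.06, and over 3410 pairs 200 kb or more apart it was 0.02. The median difference between the shifts of 2 neighbours was 21.9 points for the closest pairs and 21.6 for the most distant. An Activin A region with no control peak lay within 10 kb of 55.5% (53.7 to 57.3) of risen, 53.1% (51.3 to 54.9) of fallen and 52.6% (51.9 to 53.4) of the remaining regions. A control region with no Activin A peak lay within 10 kb of 5.17% (4.41 to 6.01), 6.80% (5.93 to 7.75) and 4.99% (4.66 to 5.34) in that order, with the highest value beside fallen regions.

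Position along the chromosome went with small average differences. Within 2 Mb of a chromosome end, 212 of 1126 shared regions had risen (18.8%, 16.6 to 21.2) and 109 had fallen (9.68%, 8.02 to 11.6), against 13.9% and 13.7% of all shared regions. From 2 to 5 Mb the shares were 16.7% (14.8 to 18.8) and 11.3% (9.64 to 13.1), and at 20 Mb or more 13.2% (12.7 to 13.8) and 14.2% (13.7 to 14.8). The median shift was 2.38 points in the outer 2 Mb and -0.84 at 20 Mb or more. Outer regions started lower, at a median control percentile of 45.1 against 51.5 at 20 Mb or more. A lower control rank leaves more room to rise and less to fall, and the shares were not compared at matched control rank. Among the 20 chromosomes with at least 20 regions in their outer 2 Mb, the median there was higher than in the rest in 17. The medians went the other way on chromosomes 6, 10 and 22. Distances were examined after other results were seen. The excess did not recur in the contrast that shares no library: from Wnt3a to both, 13.5% (10.9 to 16.4) of 623 outer regions had risen and 18.5% (15.5 to 21.7) had fallen. When ranked by score per base of peak width, 19.9% of the outer regions had risen and 19.4% had fallen, against 18.6% and 18.7% of all shared regions. Outer regions had the larger width ratio, a median log2 of 0.57 against 0.43 at 20 Mb or more.

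**Figure D4:**
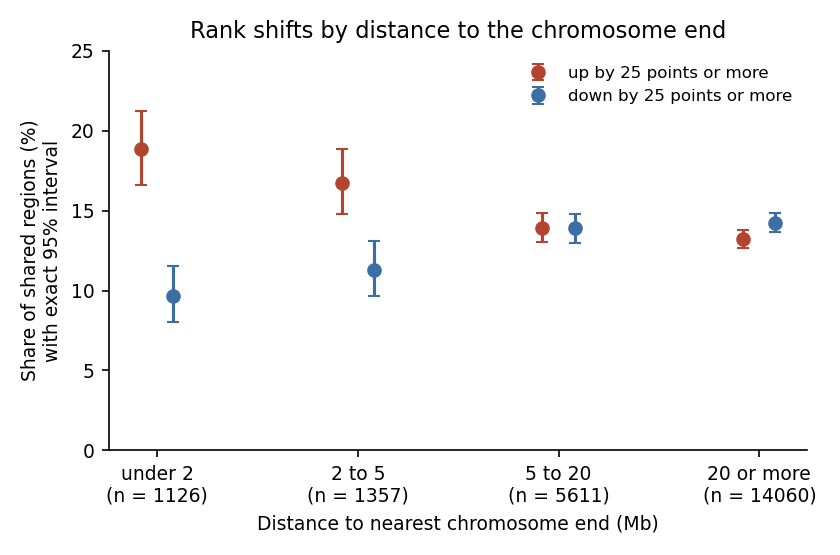
Share of shared regions that ranked at least 25 points higher (red) or lower (blue) after Activin A, by distance in Mb to the nearest chromosome end, with exact 95% intervals that cover counting error only. The shares separate within 5 Mb of an end, at 18.8% and 9.68% in the outermost group, and are close to each other farther in.

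Chromosomes differed little. Median shifts of the chromosomes with at least 50 shared regions ran from -2.34 points on chromosome 4 to 3.43 on the X chromosome. On the X chromosome 47 of 252 regions had risen (18.7%, 14.0 to 24.0) and 26 had fallen (10.3%, 6.85 to 14.8). Over all shared regions 13.9% had risen and 13.7% had fallen. Chromosome 4 had the largest share of falls among chromosomes with at least 50 regions, 166 of 906 (18.3%). Chromosome 19 had the smallest, 125 of 1302 (9.60%, 8.05 to 11.3). The Y chromosome, below that minimum, had 29 shared regions with a median shift of -12.0 points, 10 of them fallen. In the contrast that shares no library the X chromosome had a median of -4.88 points over 148 regions, the opposite sign, and over regions in all 4 lists its shift after Activin A was 0.05. Its value thus changed with the set of regions ranked.

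Band medians were more spread. Over the 114 bands with at least 50 shared regions they ran from -11.9 to 7.38 points, and the middle 50% lay between -1.70 and 2.21. The lowest was 6p22.1, a band that holds part of the large histone gene cluster and many tRNA genes. Of its 72 shared regions 18 had fallen (25.0%) and 3 had risen (4.17%), against 13.7% and 13.9% of all shared regions. The shifts themselves chose this band and the others named here, so their shares are a description. Ranked among the shared regions, it had a median percentile of 51.2 in control and 35.6 after Activin A. On the separate 4-list scale, its 42 regions in all 4 lists had medians of 45.5 after Wnt3a and 35.8 with both ligands. Their median shift from control to Activin A on that scale was -14.7 points. The shift from Wnt3a to both was -3.64 points there, against -0.64 over all regions. Its lowest members were the narrowed region at 27262955 to 27263530, with scores of 160.2 in control, 84.4 after Activin A and 57.0 with both, and 27197536 to 27198518, with 125.4, 133.8 and 226.4. Neither had a Wnt3a peak. The other low bands were 17q21.33 (median -8.00 over 62 regions), 17q21.32 (-6.57 over 51), 22q13.1 (-6.42 over 90) and 20q13.13 (-5.72 over 55). Ranked within whole lists, where all 10 named bands had positive medians against 19.2 over all shared regions, these 5 stayed below that value, with differences from it of -0.91 (22q13.1) to -11.6 points (17q21.32) and of -5.42 for 6p22.1. Ranked by score per base of width, 6p22.1 was at -9.12 and 20q13.13 at -8.23, while 17q21.33 was at -2.57, 22q13.1 at -2.27 and 17q21.32 at 0.06.

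The highest bands were 22q11.21 (median 7.38 over 72 regions), 8q24.3 (7.32 over 109), 19q13.43 (5.81 over 66), 1q22 (5.57 over 68) and 22q12.2 (5.23 over 52). Ranked by score per base of width, 1q22 was the highest band at 10.2, 22q12.2 was at 5.72 and 19q13.43 at 3.905, while 22q11.21 was at 1.95, position 89 of 114 from the lowest. In 19q13.43, a band known for zinc finger genes, 17 regions had risen (25.8%, against 13.9% of all) and 2 had fallen (3.03%, against 13.7%). The largest rise in that band was at 56988412 to 56989897 on chromosome 19, from a control score of 58.8 to 712 after Activin A. The shift from Wnt3a to both in 19q13.43 was 4.15 points over 54 regions. In 8q24.3, next to the end of the long arm, 26 regions had risen (23.9%, against 13.9% of all) and 8 had fallen (7.34%, against 13.7%). The largest rise there was at 145805508 to 145807171, from 50.7 in control to 560 after Activin A. That band had a median log2 width ratio of 0.78, against 0.44 over all shared regions, and ranking by score per base of width gave it a median shift of -0.46. From Wnt3a to both its median was -7.67 over 60 regions. Ranked within whole lists, the 5 highest bands stayed above the median of all shared regions, by 0.49 (1q22) to 10.6 points (8q24.3).

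**Figure D5:**
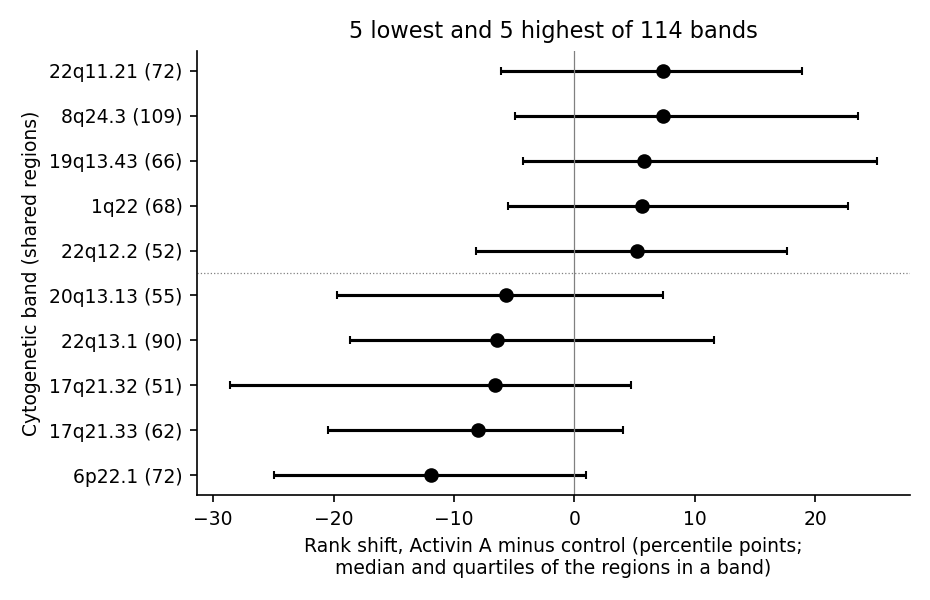
Median rank shift in percentile points, with quartiles of the regions in a band, for the 5 lowest and 5 highest of 114 cytogenetic bands; the number of shared regions stands in brackets. The band 6p22.1 is lowest at -11.9 and 22q11.21 highest at 7.38, and the quartiles of all 10 bands cover zero.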

How the data were processed

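ATAC-seq of 4 H1 samples was deposited as 1 peak list a sample, whose 5 columns hold chromosome, start, end, peak name and score. The tools named are CASAVA 1.8 and Bowtie2 2.2.2, and the build is hg19, per the submitters' processing notes. Peak calling, duplicate removal and read shifting are not given in the sources used here. Read totals are likewise not given, and depth is unknown. The score is the authors' own deposited value; from its minimum near 50 it appears to be a p-value on a −10 × log10 scale.

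Peaks overlapping by 1 base or book-ended were merged. Percentile ranks used average ranks for ties. Shares carry exact (Clopper-Pearson) 95% intervals. Regions were named by rule: with 1 peak in each list, the 10 largest rises and falls and the 5 largest and smallest width ratios; the 5 highest scores in each list; and the 5 highest and lowest bands. The members and rules were chosen with earlier results of these data known. The planned gene and motif analyses were not run, because the sequence and gene tables at hand were of another build. Coordinates count from 1 and are those of the Activin A peak, except for regions named for their control score and where the control peak is stated. Bands came from circlize 0.4.16, and computations used Python 3.11.15, numpy 2.4.6, pandas 2.3.3, scipy 1.17.1 and matplotlib 3.10.9. On simulated data made from 24672 control peaks, all 200 planted rises and 200 planted falls were found. The other scores were scaled copies of the control scores without noise, and the planted shifts were large. That outcome therefore checks the computation only and says nothing about finding shifts between real lists.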

Additional observations from a re-analysis of the deposited data

How the results depend on the processing

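Values were taken as moved when they left the 95% interval of the reported one, which is narrow at this number of regions. By that measure 36 alternative values of the main results stayed and 39 moved. Merging over 4 lists, autosomes alone, and leaving out centromeric, heterochromatic and stalk bands changed none of the 6 values for shares, correlation, median shift and width.

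Ranking within whole lists gave 41.7% risen, 1.75% fallen, a median absolute shift of 20.7 points, a correlation of 0.18 between the contrasts that share no library, and medians of 27.8 for the X chromosome and 13.8 for 6p22.1. The median from Wnt3a to both in fallen regions turned from -4.46 to 18.8, where all regions had 17.8, a value added after seeing the data. The median of all shared regions was then 19.2, and 17q21.32 was the lowest band in place of 6p22.1. By score per base of width, added for bands after seeing the data, 8 of the 10 named bands kept their sign. That ranking gave 18.6% risen, 18.7% fallen, a correlation of 0.49 and a median absolute shift of 18.1. A reciprocal overlap of 50% kept 17856 regions and gave 11.3% risen, 11.3% fallen, a correlation of 0.73, a median absolute shift of 12.4, 78.7% wider and a log2 width ratio of 0.33. Cutting the Activin A list to the length of the control list gave 14.7%, 14.7%, 0.63, 14.6, 86.8% and 0.52 in the same order. The upper 50% of either list gave 16.7%, 15.9%, 0.50, 14.8, 84.0% and 0.46. Summed scores gave 13.2%, 13.0%, 0.68 and 13.40. Merging peaks within 500 bases gave a correlation of 0.67. The log2 width ratio was 0.42 with 1 peak in each list and 0.42 with summed widths. At a threshold of 10 points 29.2% had risen and 31.6% fallen, and at 50 points 2.92% and 1.72%. Thresholds, overlap and list length change these by construction; for the other settings the cause was not tested.

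Depth is unknown for all 4 libraries. No paired analysis was possible because there was a single library on either side. Alternatives for gene lists and motifs were not run.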
